A study of Mus musculus with 5 samples.

Results

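Histones are the proteins that DNA is wound around. The genes described here are those whose symbol starts with Hist1h, Hist2h, Hist3h, Hist4h, H2af, H3f or H1f, each read from the row of the array table that names it alone, taking the row with the highest mean where a gene had several. Most histone genes have since been renamed, so members were found through their older symbols, and 34 of them were reached only that way. Of 93 such genes in the RefSeq gene table, 43 had a row of their own among 22180 genes. These were 30 clustered replication-dependent genes and 13 replacement variants. A further 42 were named only in rows shared by several genes and are described separately, and 8 were not analysed here.

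Clustered histone genes are transcribed together in S phase to package newly copied DNA. Their mRNAs end in a stem-loop bound by the protein Slbp instead of a poly(A) tail, and they are degraded when replication stops. Replacement variants are encoded by separate genes, mostly with ordinary polyadenylated mRNAs, and can be placed on chromatin outside S phase by dedicated chaperones. Macrophages from bone marrow divide in response to M-CSF, whereas osteoclasts are non-dividing cells with many nuclei that arise by fusion of such precursors.

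The arrays followed macrophages grown from bone marrow of wild-type mice aged 10 weeks as they became osteoclasts. All cells were kept on plastic with M-CSF at 20 ng/ml, and RANKL, which induces osteoclasts, was given at 30 ng/ml. RNA came from macrophages at day 0, from differentiating cultures at days 1, 2 and 3, and at day 5 from cultures called mature, with 1 Affymetrix array per day made from 5 ng of total RNA. Whether animals were pooled is not given in the sources used here. With 1 array per day no test was possible, and every difference compares single arrays. No culture without RANKL was measured on days 1 to 5, so effects of RANKL and of days in culture cannot be told apart. Values are RMA expression values on the log2 scale, so a difference of 1 is 2-fold. Because the arrays were scaled to a common distribution, and because RNA came from whole cultures, fewer cells of a type and less RNA per cell cannot be told apart.

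A gene was called measured when its mean over the 5 arrays reached 4.89, the median of all row means. This held for 12049 genes, among them 26 of the 43 histone genes: 19 of 30 clustered genes and 7 of 13 variants. The clustered H1 gene H1f3 had the lowest mean inside the filter, 5.48, and the testis variant gene H2ab2 (H2afb2) lay just outside at 4.84. As a yardstick of disagreement between rows, differences of day 5 from day 0 were compared between 2 rows of the same gene. They disagreed with an SD of 0.592 over 500 genes, which is 0.419 for 1 row. This yardstick covers neither noise that the rows of an array share nor the spread between cultures. All 10 osteoclast markers were at least 2-fold higher at day 5 than at day 0, with medians of 5.71, 7.85, 10.58, 11.87 and 11.90 on days 0, 1, 2, 3 and 5.

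Measured clustered histone genes split into a larger group that was lower at day 5 than at day 0 and a smaller group that was higher, while 6 of the 7 measured variants were less than 2-fold apart. Among the 19 measured clustered genes, 10 were at least 2-fold lower at day 5, 4 were at least 2-fold higher and 5 were neither, with a median difference of -1.06. Over all 12049 measured genes, 6.56% were 2-fold lower, 6.78% were 2-fold higher and the median was 0.00. Counted over all 30 clustered genes with a row, the same 10 and 4 genes are concerned, because none of the 17 histone genes below the filter reached 2-fold. Of the 7 measured variants, 1 was 2-fold lower, H2ax (H2afx), and 0 were higher, with a median of -0.24. For 7 genes this count is near the shares of 6.56% and 6.78% over all measured genes. The class medians differed by -0.82, clustered minus variant, but the class means differed by only -0.06, since the 4 higher genes offset the lower ones. The filter on the mean favours genes that are high on some day, so these medians describe the measured genes alone. Without the filter the clustered median was 0.00 and the difference between the classes 0.01. Only 2 measured clustered genes, H2ac21 and H4f16, had several rows. In each the row of lower mean did not differ between days 0 and 5, and with the rows averaged neither gene reached 2-fold. That left 8 clustered genes 2-fold lower and 4 higher, with a median of -0.87. With arrays set to an equal median level of 13 reference genes, which shifts every gene by 0.58 at day 5, 2 clustered genes were 2-fold higher and 3 variants were 2-fold lower. The median difference of those genes from day 0 was only 0.029 at day 5. A shift by that difference, added after the data were seen, moved no main value past the limit given at the end. Of 7 granulocyte markers, 4 were 2-fold lower at day 5 than at day 0, with median levels of 6.49, 6.57, 6.02, 6.02 and 5.35 over the 5 days. Between days 2 and 3 the median difference of these granulocyte markers was 0.33 and 0 were 2-fold lower. Of 8 macrophage markers, 3 were 2-fold lower at day 5 than at day 0 (median difference -0.87). At day 1 against day 0, 5 of the 8 were 2-fold lower. Between days 2 and 3, 1 of the 8 was 2-fold lower and 2 were higher (median difference 0.37). In that step 3.91% of all measured genes were lower and 2.08% higher. Among stromal and osteoblast markers with a row, 5 of 6, only Dcn was 2-fold apart at day 5 from day 0. Dcn had 5.20, 8.45, 8.44, 7.99 and 7.13. The others differed by 0.19 (Col1a1), 0.02 (Col1a2), -0.08 (Alpl) and 0.00 (Bglap). The part of granulocytes, macrophages or stromal cells in the histone differences was not tested. Lymphocyte markers with a row, 5 of 6, lay between 3.43 and 5.00 on every array, and the 3 of 6 erythroid and megakaryocyte markers with a row between 4.11 and 5.82.

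**Figure D1:**
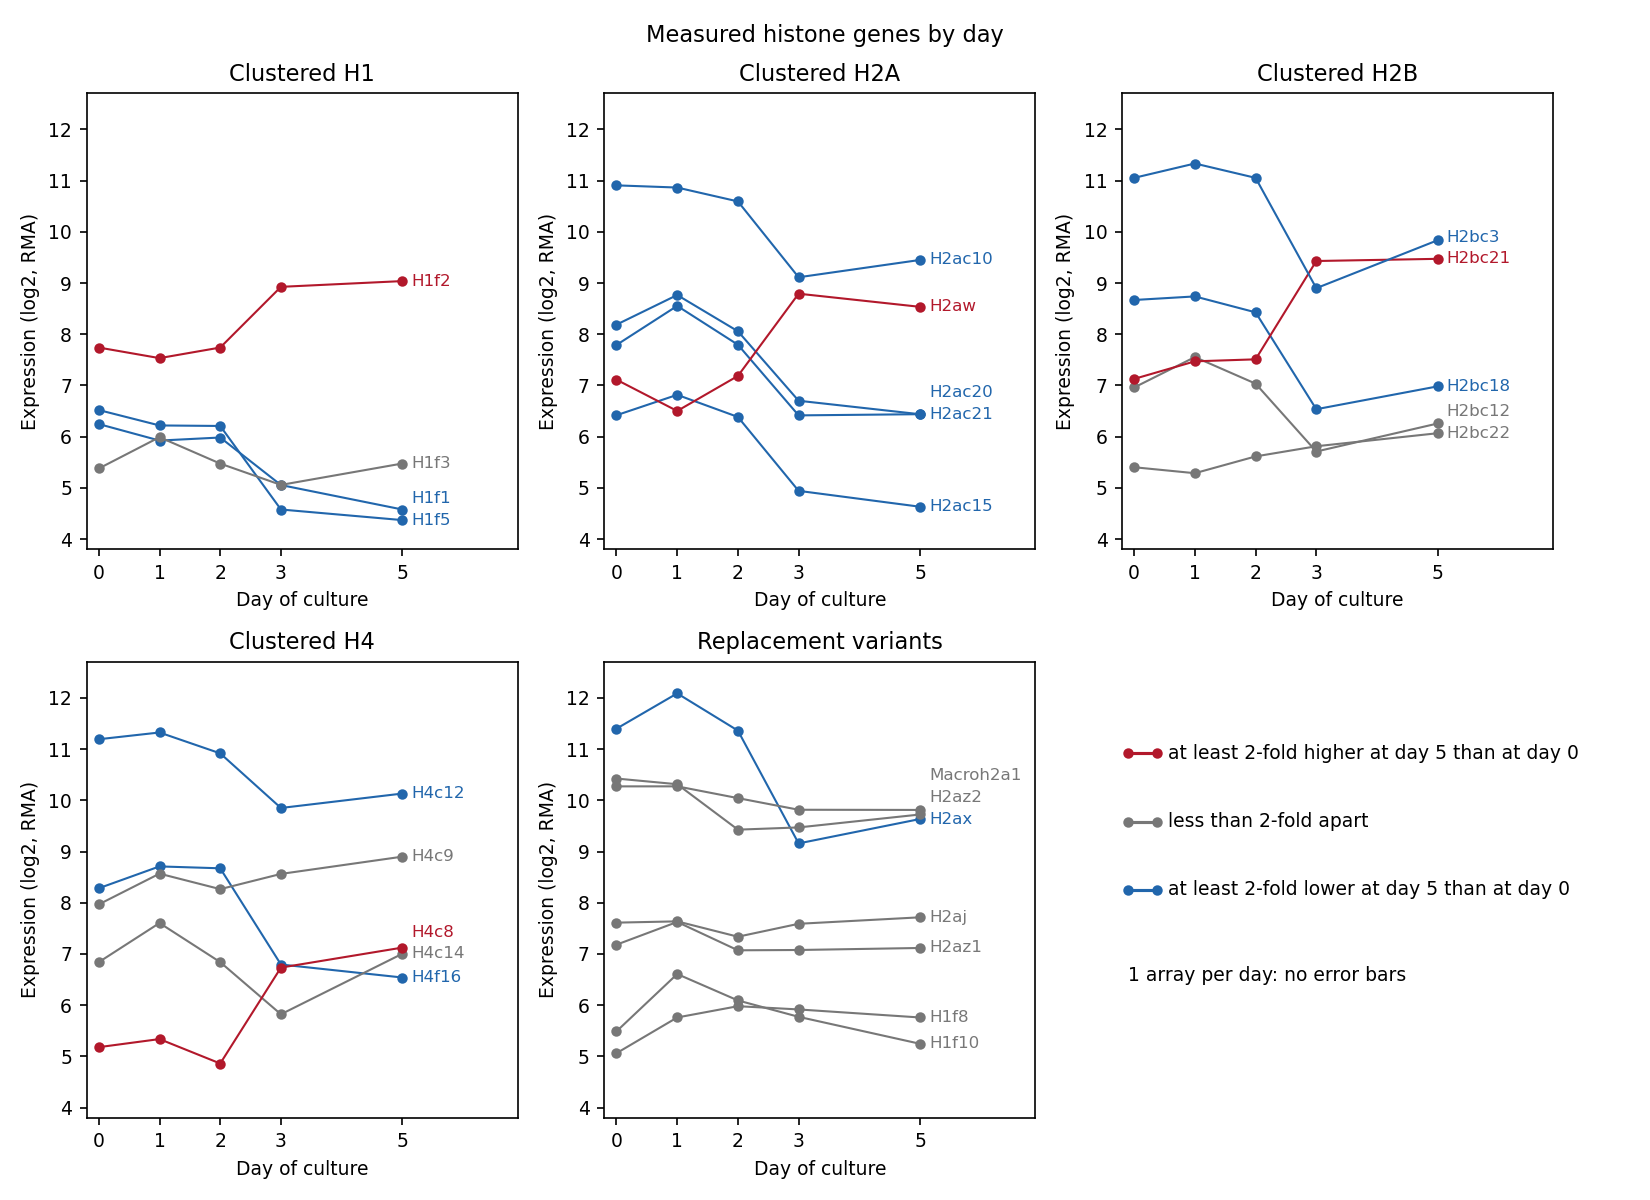
Expression on the log2 RMA scale (vertical axis) against day of culture (horizontal axis) for the 19 measured clustered histone genes, by histone type, and the 7 measured replacement variants; each point is 1 array and there are no error bars. Blue lines are at least 2-fold lower and red lines at least 2-fold higher at day 5 than at day 0; in each clustered panel 1 red line crosses or moves away from the blue ones between days 2 and 3.

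Promoters of 4 named genes are shown because they set a gene that was lower at day 5 beside one of the same or a partner class that was higher, and because clustered histone promoters share short elements. Each stretch is the 150 bases before the RefSeq start, on assembly GRCm38.p6, written 5′ to 3′ on the gene's strand. H1f5 (Hist1h1b, lower) lies at chr13:21780626-21780775 on the minus strand, and H1f2 (Hist1h1c, higher) at chr13:23738657-23738806 on the plus strand. H2bc18 (Hist2h2bb, lower) lies at chr3:96269550-96269699 and H2aw (Hist3h2a, higher) at chr11:58954535-58954684, both on the plus strand. Capitals mark the CCAAT box, the TATA element (TATAAA) and the octamer known from H2B promoters (ATTTGCAT). They also mark the H1 box, spelled AAACACA. The core of the H4 promoter element known as site II was searched for as GGTCCG. All were read on both strands. None of these strings contains another.
H1f5: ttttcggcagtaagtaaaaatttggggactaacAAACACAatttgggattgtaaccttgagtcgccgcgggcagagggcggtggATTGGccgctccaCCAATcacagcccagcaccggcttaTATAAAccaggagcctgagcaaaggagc
H1f2: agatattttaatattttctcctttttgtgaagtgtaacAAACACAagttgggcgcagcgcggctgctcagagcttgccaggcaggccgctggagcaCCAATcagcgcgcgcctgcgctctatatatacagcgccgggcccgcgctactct
H2bc18: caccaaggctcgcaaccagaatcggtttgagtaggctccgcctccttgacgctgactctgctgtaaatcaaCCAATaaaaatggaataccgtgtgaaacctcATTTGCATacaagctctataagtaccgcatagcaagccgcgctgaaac
H2aw: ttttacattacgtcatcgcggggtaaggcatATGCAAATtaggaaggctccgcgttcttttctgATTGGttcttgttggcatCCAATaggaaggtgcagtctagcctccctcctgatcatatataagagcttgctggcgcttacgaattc
Both H1 promoters hold CCAAT and the H1 box, and both H2B and H2A promoters hold CCAAT and the octamer, although the genes of each pair differed in direction. TATAAA stands in the H1f5 stretch but not in those of H1f2, H2bc18 and H2aw. Only this spelling was searched for, so a TATA element spelled otherwise was not counted here or below.

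The table of promoters held 79 of the 93 histone genes and 27025 genes in all, and motifs were counted in the 250 bases before the start. CCAAT stood in 51 of 62 clustered promoters and in 10 of 17 variant promoters, against 37.5% of all promoters. It was in 18 of 18 clustered H2A and 16 of 16 clustered H2B promoters but in 3 of 12 of clustered H4. TATAAA was in 29 of 62 clustered promoters and 1 of 17 variant promoters, against 14.3% of all. The octamer, known as a binding site of the transcription factor Oct-1 in H2B promoters, was in 7 of 16 H2B and 7 of 18 H2A promoters, against 1.81% of all. The H1 box was in 5 of 6 clustered H1 promoters, against 7.20% of all, and GGTCCG in 9 of 12 clustered H4 promoters, against 7.69% of all. Of the measured clustered genes that were 2-fold lower at day 5, 8 of 10 promoters held CCAAT and 6 of 10 TATAAA. Of those 2-fold higher, 3 had a promoter in the table, and 2 held CCAAT and 0 TATAAA. These are matches of letters, not sites shown to be in use.

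H1 linker histones bind the DNA between nucleosomes. H1f5 had the largest shortfall of any clustered gene, with 6.52, 6.22, 6.21, 4.58 and 4.37 on days 0, 1, 2, 3 and 5, and was 4.43-fold lower at day 5 than at day 0 (-2.15). Its first 3 values lay together and its last 2 lay below 4.89, a range in which RMA understates folds. H1f1 (Hist1h1a) had 6.25, 5.92, 5.98, 5.06 and 4.58 and was 3.18-fold lower (-1.67). H1f2, whose promoter is given above beside that of H1f5, went the other way with 7.74, 7.53, 7.74, 8.92 and 9.04, 2.46-fold higher at day 5 than at day 0 (1.30). It is among the clustered genes known to make polyadenylated transcripts as well. H1f3 (Hist1h1d) had 5.38, 5.99, 5.47, 5.06 and 5.48 and ended 0.10 above day 0. Of the 4 measured clustered H1 genes, 2 were thus 2-fold lower and 1 was higher (median -0.79).

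H2A and H2B form dimers within the nucleosome core, and their clustered genes often lie in pairs. H2A was the class with the lowest median: 4 of 5 measured genes were 2-fold lower at day 5 and 1 was higher (median -1.46). H2ac15 (Hist1h2ak) had 6.42, 6.82, 6.38, 4.94 and 4.63 on days 0, 1, 2, 3 and 5 and differed by -1.79. H2ac21 (Hist2h2ab) had 8.19, 8.77, 8.06, 6.70 and 6.44 and differed by -1.75, or by -0.87 when its 2 rows were averaged. Both had their highest value at day 1 and ended at their lowest. H2ac10 (Hist1h2af) had 10.91, 10.86, 10.59, 9.11 and 9.45 (-1.46). H2ac20 (Hist2h2ac) had 7.79, 8.55, 7.79, 6.42 and 6.44 (-1.35). The exception was H2aw, the H2A gene of the small Hist3 cluster. It had 7.11, 6.50, 7.19, 8.79 and 8.53 and was 2.68-fold higher at day 5 than at day 0 (1.42), with both late values above all 3 early ones.

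Among 5 measured clustered H2B genes, 2 were 2-fold lower at day 5, 1 was higher and 2 were neither (median -0.70). H2bc18 had 8.67, 8.74, 8.43, 6.54 and 6.98 on days 0, 1, 2, 3 and 5 and differed by -1.69. H2bc3 (Hist1h2bb) had 11.05, 11.33, 11.05, 8.90 and 9.84 (-1.22), and H2bc12 (Hist1h2bk) had 6.96, 7.55, 7.04, 5.71 and 6.26 (-0.70). These 3 were lowest at day 3 and partly higher again at day 5. H2bc21 (Hist2h2be) stood out in the opposite direction with 7.13, 7.47, 7.51, 9.43 and 9.47. It was 5.08-fold higher at day 5 than at day 0 (2.34), more than any other clustered gene with a row of its own. In human cells its counterpart is known to give polyadenylated mRNA, and H1f2 and H2bc21 were the 2 genes of a list of 3 such histone genes that had their own row. H2bc22 (Hist1h2bp) had 5.40, 5.29, 5.61, 5.81 and 6.07 (0.66), a difference beyond the row yardstick of 0.419 but short of 2-fold.

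H4 pairs with H3 in the core of the nucleosome, and the clustered H4 genes encode nearly the same protein from many copies. Of 5 measured, 2 were 2-fold lower at day 5, 1 was higher and 2 were neither (median 0.16). H4f16 (Hist4h4), which lies apart from the large clusters, had 8.28, 8.71, 8.67, 6.79 and 6.54 on days 0, 1, 2, 3 and 5 and differed by -1.74, or by -0.87 over its 2 rows. H4c12 (Hist1h4k) had 11.19, 11.32, 10.92, 9.85 and 10.13 (-1.06), just past 2-fold. H4c8 (Hist1h4h) had 5.18, 5.34, 4.86, 6.73 and 7.12 and was 3.85-fold higher at day 5 than at day 0 (1.94), with its early values near the filter level. H4c9 (Hist1h4i) had 7.97, 8.57, 8.27, 8.56 and 8.90 (0.93). H4c14 (Hist2h4) had 6.84, 7.60, 6.84, 5.82 and 7.00 and ended 0.16 above day 0, after the lowest value of its course at day 3. H4 coding sequences are nearly identical, and which copy a probe binds was not tested, so these differences are those of the rows as annotated.

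**Figure D2:**
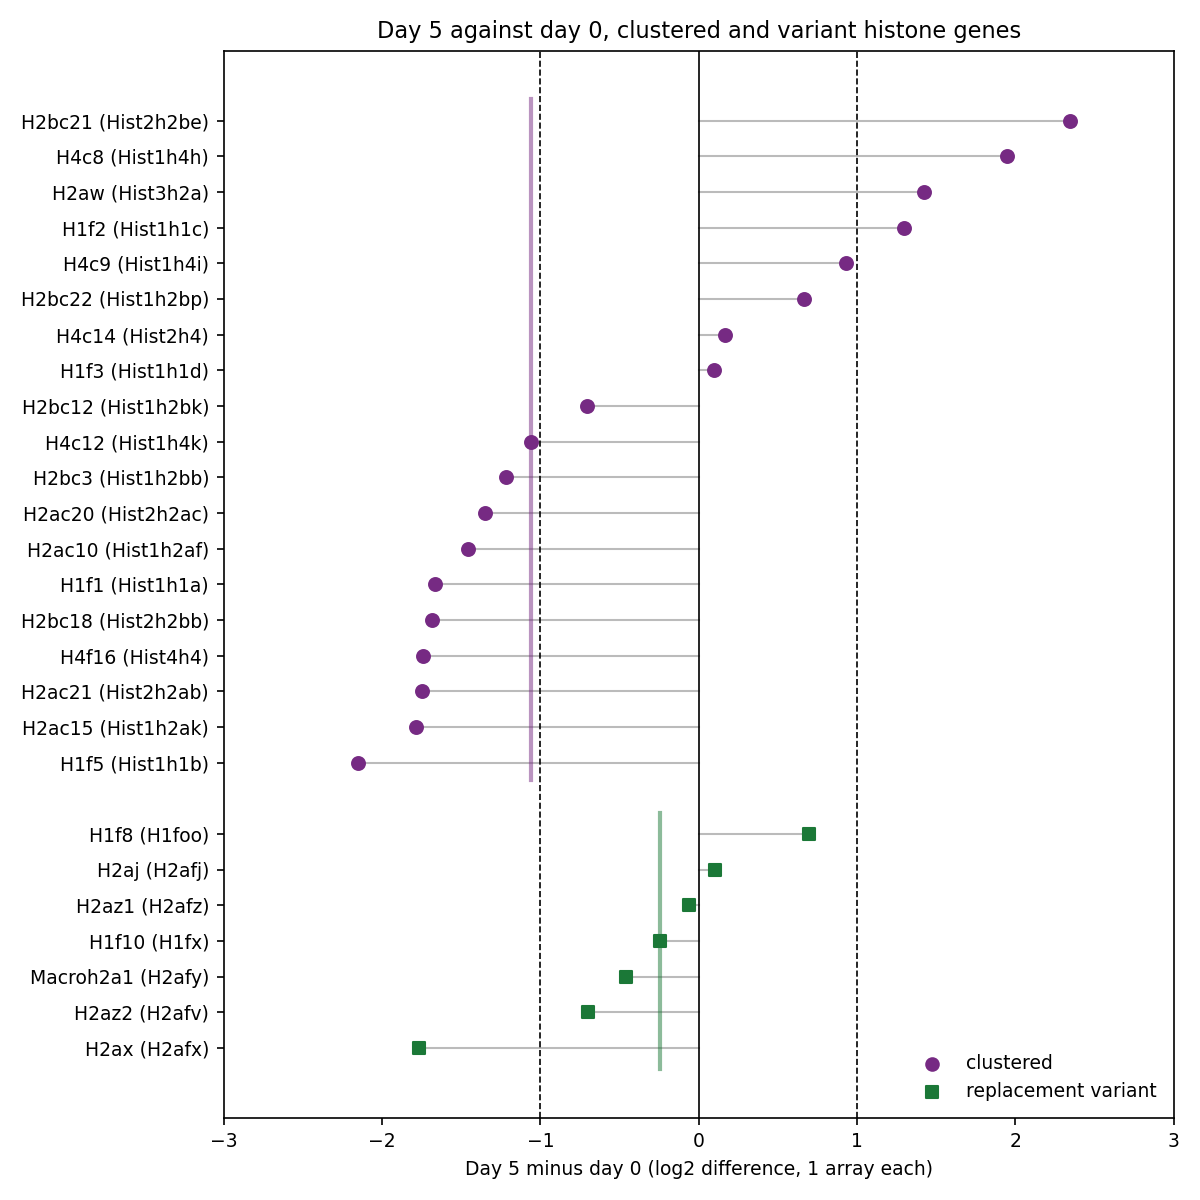
Difference of day 5 from day 0 in log2 units (horizontal axis, 1 array each) for each measured histone gene (vertical axis), clustered genes as purple circles and replacement variants as green squares. Vertical coloured bars are class medians (-1.06 and -0.24) and dashed lines mark 2-fold; clustered genes reach from -2.15 to 2.34, while 6 of the 7 variants lie inside the dashed lines.

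Among the variants only H2ax, whose protein is phosphorylated around DNA breaks, was 2-fold apart at day 5 against day 0. Of the 7, 3 lay within the row yardstick of 0.419 and 4 beyond it. The share of all measured genes beyond this limit was not taken, so the count shows nothing particular to variants. H2ax had 11.40, 12.09, 11.36, 9.16 and 9.63 on days 0, 1, 2, 3 and 5 and differed by -1.76 at day 5 from day 0. It was highest at day 1 and lowest at day 3, as were 4 of the 10 clustered genes that were 2-fold lower at day 5 (H2ac20, H2bc18, H2bc3 and H4c12). In human cells H2AX mRNA is known both with a stem-loop end and with a poly(A) tail. H2ax was the only variant counted, so leaving it out gives 0 of 6 by construction. Over all measured genes 6.56% were 2-fold lower.

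H2az2 (H2afv) and H2az1 (H2afz) encode the forms of H2A.Z, which marks promoters. H2az2 had 10.42, 10.31, 9.43, 9.47 and 9.72 (-0.70), lower from day 2 on. H2az1 had 7.18, 7.62, 7.07, 7.08 and 7.12 (-0.06). Macroh2a1 (H2afy), an H2A variant with a large extra domain that is enriched in silent chromatin, had 10.27, 10.27, 10.04, 9.82 and 9.81 (-0.46). H2aj (H2afj) had 7.61, 7.64, 7.34, 7.59 and 7.72 (0.10), the narrowest range of the 7. The linker variant H1f10 (H1fx) had 5.49, 6.61, 6.09, 5.77 and 5.25 (-0.24), with its highest value at day 1. H1f8 (H1foo), known as the linker histone of oocytes, had 5.06, 5.76, 5.98, 5.92 and 5.76 (0.70), a low signal that was not 2-fold apart between any pair of these days.

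Most of the differences of the clustered genes lay between days 2 and 3. For 15 of the 19 measured clustered genes this was the largest step, as for 1 of the 7 variants, H2ax (-2.20). In that step 11 clustered genes were at least 2-fold lower and 4 were higher, with a median of -1.07, where 3.91% of all measured genes were 2-fold lower and 2.08% higher. H2bc3 was lowest (-2.15) and H2bc21 highest (1.92). The variants had a median of -0.06, with 1 gene 2-fold lower. The 10 genes that were lower at day 5 had differed from day 0 by -0.31 to 0.39 at day 2, then each was below its day 2 value at day 3, by -2.15 to -0.93. The 4 genes that were higher at day 5 had differed from day 0 by -0.32 to 0.38 at day 2 and by 1.19 to 1.92 between days 2 and 3. Both directions therefore appeared over the same interval of culture.

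The other steps were small. At day 1 against day 0, 0 clustered genes were 2-fold apart either way, where 4.17% of measured genes were lower and 2.91% higher, and the clustered median was 0.28. Among variants H1f10 was 2-fold higher in that step (1.12) and the median was 0.44. Between days 1 and 2 no measured histone gene was 2-fold apart, where 0.556% of measured genes were lower and 2.46% higher, and medians were -0.30 for clustered genes and -0.52 for variants. From day 3 to day 5 the only measured histone gene 2-fold apart was H4c14 (1.18), where 0.116% of measured genes were lower and 0.158% higher. The clustered median in this last step was 0.25, and that of the variants 0.04. At day 3 against day 0, 12 clustered genes were lower and 4 higher, where 7.5% of measured genes were lower and 7.29% higher, and the median was -1.25.

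Neighbouring histone genes could differ in sign. RefSeq gene order gave 6 pairs of adjacent measured histone genes, of which 2 had the same sign at day 5 against day 0 and 4 had opposite signs. Of the 19 measured clustered genes, 11 were below 0 and 8 above, so both signs were frequent. No share of opposite signs among other pairs of genes was taken. H2bc21 (2.34) lies next to H2ac20 (-1.35), and H4c8 (1.94) next to H2ac10 (-1.46). H4c9 (0.93) adjoins H2bc12 (-0.70), and the variant H2aj (0.10) adjoins H4f16 (-1.74). The pairs of like sign were H4c12 (-1.06) with H2ac15 (-1.79) and H2ac21 (-1.75) with H2ac20. By cluster, 6 of 12 measured genes of Hist1 were 2-fold lower and 2 higher (median -0.88), and 3 of 5 of Hist2 were lower and 1 higher (median -1.35).

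Rows that name several histone genes carried the clustered H3 genes, none of which had a row of its own. The table had 47 such rows. Leaving out 3 repeats and 9 rows that also name other genes, 35 were left, of which 23 were measured. Of these 23 rows 6 were 2-fold lower at day 5 than at day 0, 3 were higher and 14 were neither (median -0.35), where 7.06% of all 20673 measured rows of the table were lower and 5.55% higher. A row may stand for any of the genes it names, so rows are not added to the gene counts. Added to the 19 clustered genes, these rows brought the clustered median to -0.44.

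H3 rows disagreed most. The row shared by H3c1, H3c8, H3c10 and H3c11 had 6.53, 6.68, 6.18, 4.67 and 5.35 on days 0, 1, 2, 3 and 5 (-1.19), the course of the lower genes. Another 8 H3 genes share a set of 5 measured rows, whose differences ran from -1.07 to 3.47. The highest of them had 5.55, 5.62, 6.43, 8.82 and 9.02, the largest difference of any histone row. A second row of the same set had 9.09 on days 0, 2, 3 and 5. The same annotation thus covered rows that were lower, level and higher.

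In H2B, a row shared by H2bc4, H2bc6 and H2bc8 had 9.63, 9.01, 10.00, 11.79 and 11.80 (2.17). H2bc4 (Hist1h2bc) is the third gene of the polyadenylated list, but which of the 3 genes the row follows cannot be told. The other row of these 3 genes had 8.40, 8.97, 8.54, 8.24 and 7.98 (-0.42). Measured rows naming H2bc4 among more genes were at 0.00, -0.21 and -1.15. The higher genes H2aw and H4c8 are not on the polyadenylated list. The part of polyadenylation in these differences was not tested. In H4, the 2 rows that name the same 13 genes had differences of -0.18 and 1.93, the higher with 5.20, 5.06, 5.16, 7.30 and 7.13. In H2A, 5 rows that name the same 10 genes ran from -2.12 to 0.04. H3f3a and H3f3b, the genes of the replacement histone H3.3, appeared in 7 measured rows shared with predicted genes. Their differences lay between -0.48 and 0.06, and no such row spanned more than 0.48 over the 5 days.

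**Figure D3:**
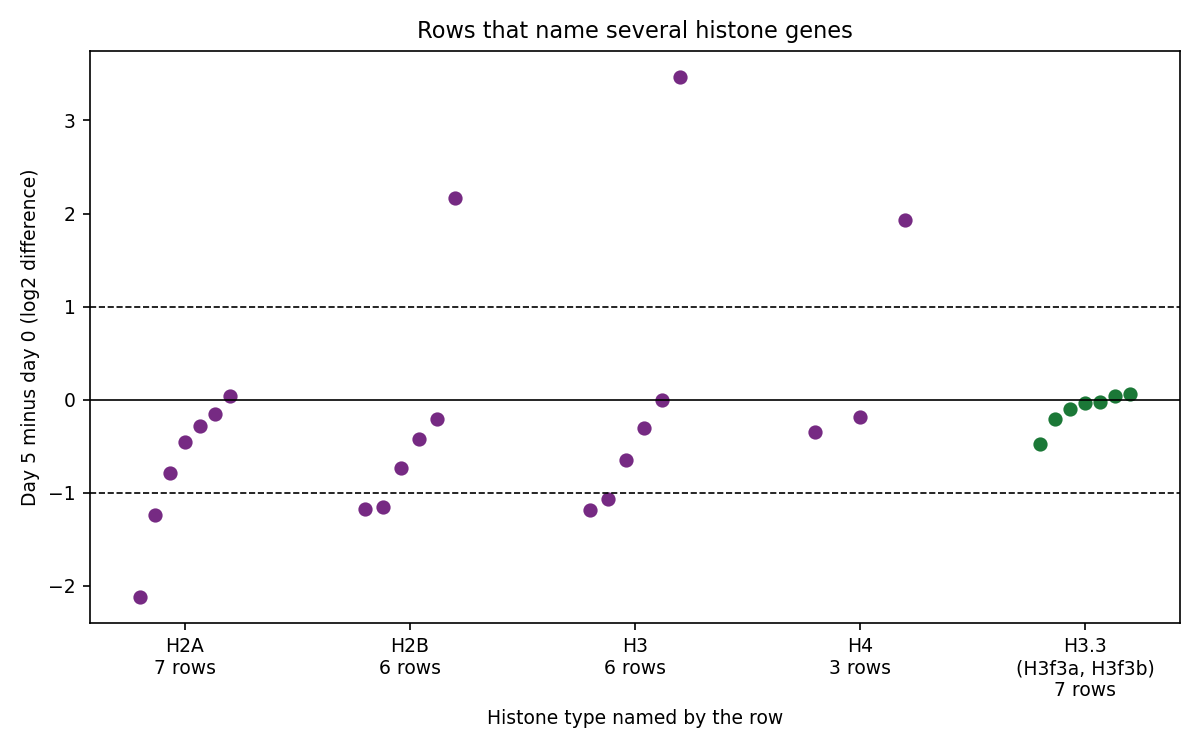
Difference of day 5 from day 0 in log2 units (vertical axis) for measured rows that name several histone genes, by histone type (horizontal axis), 1 point per row and 1 array per day; points within a type are spread sideways only to separate them. Dashed lines mark 2-fold; H2B, H3 and H4 each have 1 row above the upper line, and the 7 rows of H3f3a and H3f3b (green) lie between -0.48 and 0.06.

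Genes that serve histone supply were compared with these courses. Of 25 measured S phase genes, 20 were 2-fold lower at day 5 than at day 0 and 0 higher (median -1.73). Over all measured genes 6.56% were lower and 6.78% higher. Lowest were the replication licensing factor Cdc6 (-2.94), the helicase subunit Mcm5 (-2.13) and the DNA ligase Lig1 (-2.08), and Cdt1 was nearest to 0 (-0.26). In the step between days 2 and 3, 18 of the 25 were 2-fold lower and 0 higher (median -1.67). In that step 3.91% of all measured genes were lower and 2.08% higher. The proliferation marker Mki67 had 11.60, 11.77, 11.34, 9.68 and 9.61 on days 0, 1, 2, 3 and 5, with -1.66 between days 2 and 3. The S phase list holds no member that was 2-fold higher, unlike the clustered histone genes.

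The chaperones that hand new histones to the replication fork were lower in part. Of 6 measured, 3 were 2-fold lower at day 5 and 0 higher (median -0.91), where 6.56% of all measured genes were lower and 6.78% higher. Asf1b had 10.76, 10.61, 10.05, 8.48 and 8.89 (-1.87), and Chaf1a, the large subunit of the assembly factor CAF-1, had 8.70, 9.10, 8.91, 7.68 and 7.24 (-1.46). Nasp, which holds soluble histones, was at -1.05. Chaf1b, another CAF-1 subunit, was at -0.37. Among 12 chaperones and exchangers that act outside replication, 0 were 2-fold apart either way (median -0.15). For a list of 12 genes this count is near the shares of 6.56% and 6.78% over all measured genes. The H2A.Z chaperone Anp32e was at -0.91, the nucleosome assembly protein Nap1l1 at -0.62 and Asf1a at -0.50, while Hira, which places H3.3, was at -0.17 and Cabin1 at 0.15. The centromeric H3 variant Cenpa had 9.28, 9.66, 9.04, 8.53 and 8.48 (-0.80).

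In histone mRNA transcription and end processing, 1 of 17 measured genes was 2-fold lower, 0 were higher and the median was -0.14, a share near the 6.56% of all measured genes that were lower. The lower one was Slbp, with 9.65, 9.30, 9.15, 8.51 and 8.45 (-1.20). Next were Eri1, the exonuclease that trims the stem-loop end (-0.98), and Casp8ap2 (-0.67). Npat, the coactivator of clustered histone transcription, was at -0.44, and the nuclease Cpsf3, which cuts the histone pre-mRNA, at 0.12. Slbp had a lower value on each later sampled day.

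**Figure D4:**
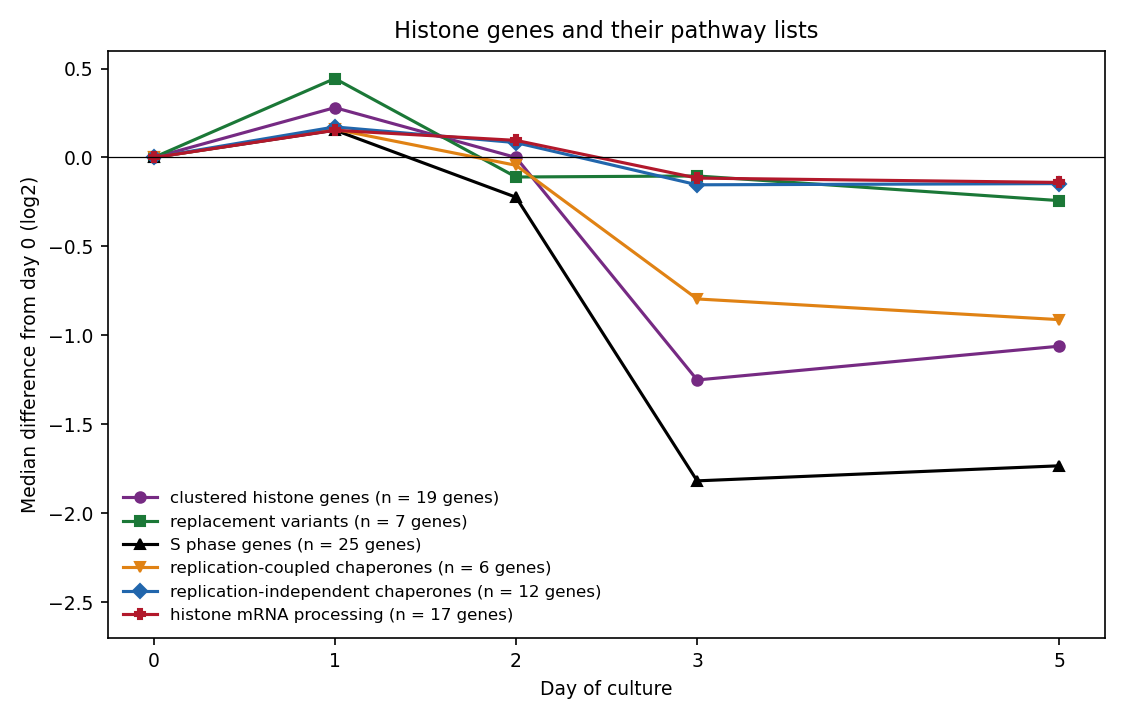
Median difference from day 0 in log2 units (vertical axis) against day of culture (horizontal axis) for measured clustered histone genes, replacement variants and 4 lists of related genes, 1 array per day, with no error bars. Clustered genes, S phase genes and replication-coupled chaperones drop between days 2 and 3, to -1.25, -1.82 and -0.80 at day 3, while the other 3 lines stay within 0.25 of 0 from day 2 on.

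The 17 histone genes with a row below the filter had values between 2.31 and 5.32, and differed at day 5 from day 0 by -0.63 to 0.66. Of these, 11 were clustered and 6 were variants, and 2 had the same value on all 5 arrays. The testis linker histone H1f6 (Hist1h1t) had 3.91, 3.90, 3.97, 3.91 and 3.94. The testis genes H2ac1 (Hist1h2aa) and H2bc1 (Hist1h2ba) ranged from 3.39 to 4.56 and from 2.31 to 2.90. H1f7 (H1fnt), a linker histone of sperm precursors, had 3.62 on every array, and H2ab2 had 4.85, 4.85, 4.64, 5.01 and 4.85. Over the 5 days 3 of the 17 spanned at least 2-fold: H2af-ps2 (1.40), Macroh2a2 (1.35) and H2ac1 (1.17). Values this low do not show that a gene was silent.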

How the data were processed

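Expression was measured on 5 arrays, 1 for each of days 0, 1, 2, 3 and 5, assigned to days from the labels. The deposited values are log2 expression values that, per the submitters' processing notes, result from RMA in the package oligo under R 3.4.0. RMA scales the arrays to a common distribution, so a shift of all genes cannot be seen. The genome build is not given in the sources used here. Of 41345 rows, 23521 named 1 gene in the platform annotation, 1814 several and 16010 were not listed. Array medians lay between 4.88 and 4.92. The precision is limited by the number of arrays.

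The rule's symbols are old ones, so members were matched by Entrez identifier to RefSeq synonyms (GRCm38.p6). By current symbol alone only 9 genes would be found. Differences between arrays were counted at 1 (2-fold), with no test. A list is described by its counts and median beside those of all measured genes. The 14 gene lists had 138 entries, 17 of them with no row analysed here. Members and lists were chosen with earlier results of these data known.

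Genes were named by a rule. It took all measured variants, the 3 lowest and the highest clustered genes of each histone type at day 5 against day 0, and the extremes of each step. It also took listed germline and polyadenylated genes, those beside the filter, the 3 largest differences and the largest of the other sign of each pathway list, and Slbp, Npat, Chaf1a, Chaf1b, Hira, Cenpa and Mki67. H2ac20, H2bc22 and H4c9 were added after their values were seen, so that every measured member is given, and so were H2af-ps2 and Macroh2a2. The counting was tested on simulated data. Promoters come from RefSeq. Alternatives covered scaling, rows, filters, days, classes and summaries. Python 3.11.15 with numpy 2.4.6, pandas 2.3.3 and matplotlib 3.10.9 was used.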

Additional observations from a re-analysis of the deposited data

How the results depend on the processing

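Of the main values recomputed under other settings, 109 moved by less than the limit, 21 by more and 1 reversed. The row yardstick of 0.419 served as the limit for a median, and 1.5 times for a count. Without the level filter (30 clustered genes and 13 variants), the class difference at day 5 against day 0 was 0.011, the reverse of -0.82, the clustered median was 0.00 and its step between days 2 and 3 was -0.31, with 17 genes added that lie below the filter. With means in place of medians the clustered value was -0.41, the class difference -0.058 and the step -0.57. Adding rows of several genes gave a clustered median of -0.44, a class difference of -0.20, and 16 lower and 7 higher entries. Setting arrays to an equal median level of 13 reference genes, which shifted all genes by 0.58 at day 5, gave medians of -1.64 for clustered genes and -0.82 for variants, 2 clustered genes higher and 3 variants lower. Shifting by the median difference of those genes, 0.029 at day 5, an alternative added after the data were seen, moved no main value. The count of 1 variant 2-fold lower became 0 with H2ax among the clustered genes, and 2 with day 1 in place of day 0 or at 1.5-fold, where 1 variant was higher. Using current symbols only, also added after the data were seen, gave 2 clustered genes lower and 1 higher, 0 variants lower and a variant median of 0.23 over 2 variants. Single genes moved past the yardstick for 12 of 26 with day 1 in place of day 0, 7 with day 3 in place of day 5 and 2 with rows averaged. No paired analysis was possible because each day had 1 array.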
